A study of Rattus norvegicus with 18 samples.

Results

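The genes described here encode the nitric oxide, cyclic GMP (cGMP) and natriuretic peptide receptor system of the heart. They are 10 genes chosen by symbol: the nitric oxide synthases Nos1, Nos2 and Nos3, the soluble guanylyl cyclase subunits Gucy1a1 and Gucy1b1, the cGMP-dependent protein kinase Prkg1, the phosphodiesterases Pde5a and Pde9a, and the natriuretic peptide receptors Npr1 and Npr3. Of the 10, 3 were listed in at least 1 of the authors' 3 tables of changed genes (Nos3, Npr1 and Pde9a) and 7 were listed in none. Those tables hold 6588 distinct genes in all.

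The RNA came from left ventricles of 18 male rats, 6 in each of 3 groups, and was selected for poly(A) tails before sequencing. ZSF1 obese rats had hypertension together with metabolic syndrome and served as the group with heart failure with preserved ejection fraction. ZSF1 lean rats had hypertension alone, and Wistar Kyoto (WKY) rats were the wild-type controls. As background, ZSF1 rats descend from a cross of Zucker diabetic fatty with spontaneously hypertensive heart failure rats, and the obese animals inherit a mutant leptin receptor allele from each side, so that obese and lean ZSF1 rats differ in leptin signalling while WKY rats are another strain. The labels give no age for the rats.

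Nitric oxide made by the synthases binds soluble guanylyl cyclase, an enzyme of an alpha and a beta subunit that then makes cGMP. A separate pool of cGMP is made at the cell membrane by Npr1, the receptor for atrial and B-type natriuretic peptides, whose inner part is itself a guanylyl cyclase, whereas Npr3 lacks that part and clears the peptides. cGMP activates protein kinase G, encoded by Prkg1, and is broken down by phosphodiesterases, of which Pde5a and Pde9a act on cGMP and not on cyclic AMP (cAMP). In the heart this pathway is known for relaxing blood vessels and for restraining growth and stiffness of cardiomyocytes, and low cGMP signalling has been discussed in heart failure with preserved ejection fraction.

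Every gene listed in the authors' tables had a fold change of at least 2 or at most 0.5 with an adjusted p under 0.05. Values per rat, mean levels, standard errors and unadjusted p-values are not used here, so the authors' adjusted p, from 6 rats against 6, is the sole measure of error, and sequencing depth is unknown. A gene absent from a table as used here may have been too low to measure, may have changed by less than the listing fold, or may have missed the p threshold, and these cannot be told apart. Listing in the lean against WKY table was narrower in effect. Its largest adjusted p was 0.000347, against 0.0498 in the obese against lean table and 0.0499 in the obese against WKY table. Whether the authors set another threshold there is not known. Library and sequencing batches are not known here, and batch and group cannot be told apart.

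In obese against lean hearts 3 of the 10 genes rose and 0 fell. In obese against WKY hearts again 3 rose and 0 fell, and they were Nos3, Npr1 and Pde9a in both. In lean against WKY hearts 0 of the 10 were listed. How many genes the authors tested is not known here, and the background was therefore taken over the 23148 protein-coding genes of RefSeq. Of these, 12.2% were listed as higher and 10.9% as lower in obese against lean hearts, 12.4% as higher and 10.8% as lower in obese against WKY hearts, and 0.596% as higher and 0.302% as lower in lean against WKY hearts. RefSeq genes too low in the heart to be tested are counted here as not listed. The shares among tested genes may therefore be higher than these. The 3 listed rises of 10 genes were not tested against the share of 12.2%. The genes were few and were chosen with earlier results of these data known, so no excess can be read from them. At a stricter fold of 3 or more, 1 of the 10 genes (Pde9a) rose against lean hearts, beside 5.98% of the RefSeq genes, and 2 (Npr1 and Pde9a) rose against WKY hearts, beside 6.37%. The 2 obese comparisons share the obese rats, so the second is not a repeat of the first.

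**Figure D1:**
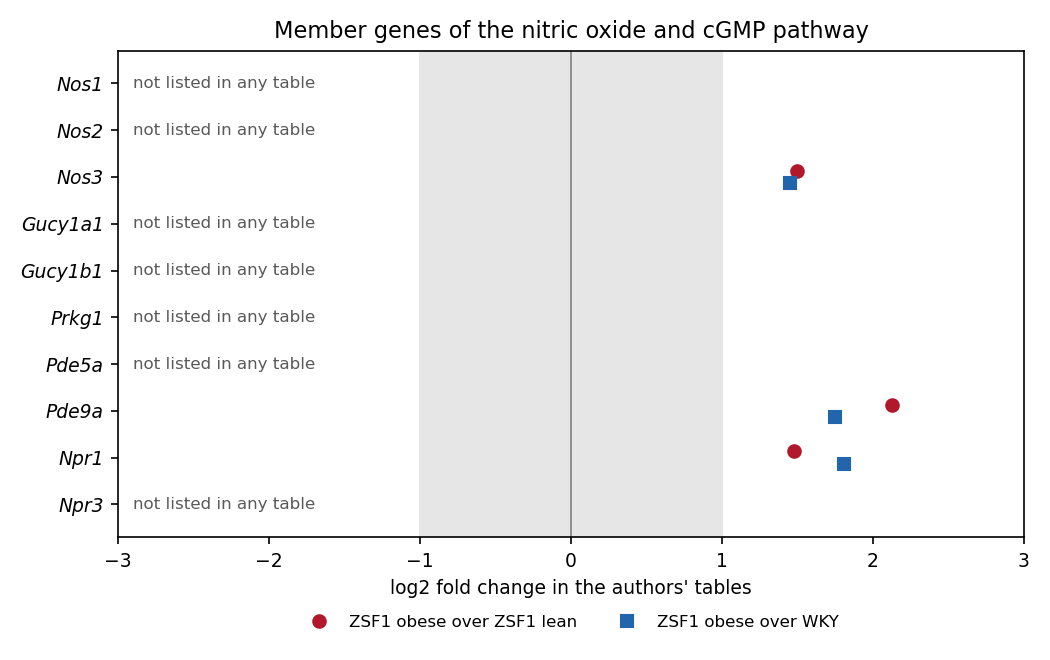
Log2 fold change of each of the 10 genes in the authors' tables, with circles for ZSF1 obese over ZSF1 lean and squares for ZSF1 obese over WKY. The grey band marks changes too small to be listed. Nos3, Npr1 and Pde9a lie to the right of the band in both comparisons, between 1.45 and 2.13, and the other genes are marked as listed in no table.

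Nos3, the endothelial nitric oxide synthase (ENSRNOG00000009348), was the one synthase listed. In the authors' deposited table its level in obese hearts was 2.83 times that in lean hearts (DESeq2, adjusted p = 1.54e-24). The authors' deposited table for obese against WKY hearts gave a fold of 2.73 (adjusted p = 8.02e-21). These are log2 changes of 1.50 and 1.45. Both folds sat a little under the median of the listed genes that rose, which was 3.01 against lean and 3.05 against WKY hearts. By fold, Nos3 ranked 1751 of 3045 risen genes against lean hearts and 1884 of 3084 against WKY hearts. Its adjusted p placed it higher, at rank 678 against lean and 652 against WKY hearts.

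Nos1, the neuronal synthase that cardiomyocytes also make at the sarcoplasmic reticulum, and Nos2, the inducible synthase of macrophages and other activated cells, were listed in none of the authors' tables. Macrophage markers rose in 11 of 12 cases in obese against lean hearts and in 12 of 12 against WKY hearts, with 0 falls, while Nos2 was absent from both tables. Neutrophil markers rose in 6 of 10 cases against lean and in 2 of 10 against WKY hearts, and 3 of 10 fell in lean against WKY hearts. Markers of nerves, which also make Nos1, and of Schwann cells rose in 4 of 10 cases against lean and in 6 of 10 against WKY hearts. For rises the RefSeq shares were 12.2% in obese against lean hearts and 12.4% in obese against WKY hearts. For falls in lean against WKY hearts the share was 0.302%. The marker counts were not tested against these shares.

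Npr1, the guanylyl cyclase receptor for atrial and B-type natriuretic peptides (ENSRNOG00000014684), had a fold over lean hearts of 2.79 in the obese hearts, by the authors' deposited table (DESeq2, adjusted p = 2.76e-25). Against WKY hearts the authors' deposited table put it at 3.51 times (adjusted p = 1.72e-26). The log2 changes were 1.48 and 1.81. Npr1 thus stood below the median risen gene against lean hearts, with 39.8% of risen genes at a smaller fold, and above it against WKY hearts, with 62.4% at a smaller fold. The clearance receptor Npr3, a textbook marker of endocardium, was listed in none of the tables, although all 5 of the other endocardial markers rose in both obese comparisons. The related receptor Npr2, which binds C-type natriuretic peptide, was not listed either.

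Pde9a, a phosphodiesterase specific for cGMP that has been tied to the natriuretic peptide pool (ENSRNOG00000001174), had the largest fold of the 3 listed genes against lean hearts. The authors' deposited table gave it a fold of 4.38 in obese against lean hearts (DESeq2, adjusted p = 2.25e-32). For obese against WKY hearts the authors' deposited table gave 3.36 (adjusted p = 3.39e-22). The log2 changes were 2.13 and 1.75. It ranked 623 of 3045 risen genes by fold against lean hearts and 1241 of 3084 against WKY hearts. Pde5a, the cGMP-specific phosphodiesterase that sildenafil blocks, was listed in none of the tables.

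The order of the 3 genes by fold was Pde9a, Nos3 and Npr1 in obese against lean hearts, and Npr1, Pde9a and Nos3 in obese against WKY hearts. Nos3 and Npr1 were 0.02 apart on the log2 scale in the first comparison. Without standard errors none of the differences between the genes, or between the 2 comparisons of 1 gene, could be tested.

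The soluble guanylyl cyclase and protein kinase G genes, which stand between nitric oxide and its effects, were not listed. Gucy1a1 and Gucy1b1, the alpha and beta subunits of the main soluble guanylyl cyclase, and Prkg1, protein kinase G, were listed in none of the tables under their present symbols, and a search by older symbols found none of them either. The same held for all 8 other guanylyl cyclase genes searched, among them Gucy1a2. Within the 10 genes the listed changes lie in a source of nitric oxide, in a peptide receptor and in a cGMP phosphodiesterase, and not in soluble guanylyl cyclase or protein kinase G. A change under the listing fold in those genes cannot be seen.

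The listed folds also carry a value for lean against WKY hearts, where none of the 3 genes was listed. Dividing the fold over WKY by the fold over lean gives an implied lean over WKY ratio of 0.966 for Nos3, 1.26 for Npr1 and 0.769 for Pde9a, which are -0.05, 0.33 and -0.38 on the log2 scale. For the 79 genes present in all 3 tables, the ratio implied in this way missed the listed log2 lean over WKY fold by a median of 0.34, with a 95th percentile of 1.85. The ratio of Nos3 is well under the median gap, that of Npr1 just under it and that of Pde9a just over it. Those 79 genes passed the narrower lean listing, so the gap may differ for other genes. Among the 4847 genes in both obese tables, 14.1% had an implied ratio closer to 0 than Nos3, 69.0% than Npr1 and 73.3% than Pde9a. None of the 3 reaches a fold of 2 in either direction. The ratio has no standard error and no test.

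The RefSeq promoter table holds 8 of the 10 genes. Sequence is shown for those among them that the authors' tables list, Nos3 and Npr1, because both rose in both obese comparisons. Each run is the 250 bases before the RefSeq gene start in build GRCr8, written 5′ to 3′ along the gene. The Nos3 window is chr4:11706582-11706831 and the Npr1 window chr2:178247089-178247338, both on the minus strand. Capitals mark matches on either strand to the motifs searched, which were TATAAA for the core promoter element, CACCC for Krüppel-like factors, GATAA for zinc finger factors of the family that includes Gata4, GGAATG for TEAD factors, TGANTCA for AP-1, CACGTG for the E-box, TGACGT for the core of the cAMP response element and GGGCGG for the GC box.
Nos3: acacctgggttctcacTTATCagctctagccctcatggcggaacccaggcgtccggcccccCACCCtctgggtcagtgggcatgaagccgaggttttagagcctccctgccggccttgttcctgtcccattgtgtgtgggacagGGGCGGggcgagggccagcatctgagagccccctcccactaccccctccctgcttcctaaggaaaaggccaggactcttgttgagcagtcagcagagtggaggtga
Npr1: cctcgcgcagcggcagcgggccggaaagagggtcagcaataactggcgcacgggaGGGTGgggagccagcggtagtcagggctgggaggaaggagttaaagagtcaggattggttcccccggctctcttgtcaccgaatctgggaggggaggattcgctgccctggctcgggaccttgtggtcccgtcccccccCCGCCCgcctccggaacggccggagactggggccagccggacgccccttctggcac

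Both windows are rich in G and C, at 62.4% in Nos3 and 68.8% in Npr1, against a median of 51.2% over 33469 RefSeq promoters. In Nos3 there was 1 CACCC match at bases -189 to -185 (counted back from the start, with -1 next to it), 1 GATAA match on the other strand at -234 to -230, and 1 GC box at -106 to -101. In Npr1 there was 1 CACCC match on the other strand at -195 to -191 and 1 GC box on the other strand at -56 to -51. These motifs are common: CACCC was in 49.2% of all promoters of this length, the GC box in 30.5% and GATAA in 23.5%. No match to the core promoter element, AP-1, E-box, cAMP response element or TEAD motif was found in either window, and these were in 12.9%, 6.34%, 5.59%, 6.95% and 12.1% of all promoters. No matches overlapped, and a match is a description of letters, not evidence of binding.

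Beyond the 10 genes, 85 other genes of the pathway were followed in 8 lists by role. In obese against lean hearts 6 of the 85 rose (7.06%, beside 12.2% of RefSeq genes), 16 fell (18.8%, beside 10.9%) and 63 were not listed. In obese against WKY hearts 14 rose and 14 fell (16.5% each, beside 12.4% and 10.8%), and 57 were not listed. At the stricter fold of 3, 4 of the 85 rose and 5 fell against lean hearts, and 4 rose and 9 fell against WKY hearts. The counts of rises and falls thus depend on the fold. At that fold 5.98% of RefSeq genes rose against lean and 6.37% against WKY hearts. The share of falls at that fold was not computed, so the falls have no background here. The lists by role are described by their members and were not tested against these shares. They too were chosen with earlier results of these data known. In lean against WKY hearts 1 of the 85 rose (1.18%, beside 0.596% of RefSeq genes) and 0 fell (beside 0.302%). Among all listed genes 53.4% rose against lean hearts and 54.0% against WKY hearts.

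Listed partners of the synthases mostly rose. Of 11 such genes 3 rose and 1 fell in obese against lean hearts, and 4 rose and 2 fell against WKY hearts. The RefSeq shares were 12.2% for rises and 10.9% for falls against lean hearts, and 12.4% and 10.8% against WKY hearts. With 11 genes, the counts were not tested against these shares. Nostrin, which moves the endothelial synthase away from the cell membrane, had folds of 3.92 against lean and 4.26 against WKY hearts in the authors' deposited tables (DESeq2, adjusted p = 9.49e-30 and 2.02e-20), beside 2.83 and 2.73 for Nos3 itself. Cav1, the caveolin that holds Nos3 inactive in endothelial caveolae, rose 2.66-fold against lean and 2.48-fold against WKY hearts in the authors' deposited tables. Cav3, the caveolin of muscle, fell to 0.486 of the lean level and 0.415 of the WKY level in the authors' deposited tables. Dynll1, a dynein light chain that binds the neuronal synthase, rose 3.32-fold against lean and 3.36-fold against WKY hearts in the authors' deposited tables. Akt1, a kinase that activates Nos3, was listed against WKY hearts alone, at the listing limit of 0.5 in the authors' deposited table. Hsp90aa1, a chaperone of Nos3, was also listed against WKY hearts alone, and the authors' deposited table put its fold at 2.01.

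Genes for the cofactor tetrahydrobiopterin were split in obese against WKY hearts. Of 6 genes 0 rose and 1 fell in obese against lean hearts, and 2 rose and 1 fell in obese against WKY hearts. With 6 genes, these counts are too few to set apart from the RefSeq shares. Those were 12.2% for rises and 10.9% for falls against lean hearts, and 12.4% and 10.8% against WKY hearts. Qdpr, which regenerates the cofactor, fell to 0.342 of the lean level and 0.328 of the WKY level in the authors' deposited tables (DESeq2, adjusted p = 1.33e-35 and 1.34e-28). Gch1, the first and rate-limiting enzyme of its synthesis, rose 2.51-fold against WKY hearts by the authors' deposited table, as did its feedback regulator Gchfr at 2.10-fold, and neither was listed against lean hearts.

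Of 10 genes that handle arginine, the substrate of the synthases, 1 rose and 2 fell in obese against lean hearts, and 3 rose and 1 fell in obese against WKY hearts. With 10 genes, these counts are too few to set apart from the backgrounds of 12.2% and 10.9% against lean and 12.4% and 10.8% against WKY hearts. Arg1, an arginase that competes for arginine, rose 3.14-fold against lean and 2.50-fold against WKY hearts in the authors' deposited tables. Ass1, which rebuilds arginine from citrulline, rose 3.56-fold in obese against WKY hearts and 2.64-fold in lean against WKY hearts in the authors' deposited tables. Ddah1, which removes methylarginines that inhibit the synthases, fell to 0.401 of the lean level and 0.387 of the WKY level in the authors' deposited tables. Its relative Ddah2 rose 2.31-fold against WKY hearts, and the arginine carrier gene Slc7a2 fell to 0.454 of the lean level, in the authors' deposited tables.

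Listed genes for natriuretic peptides and their processing mostly fell while the receptor Npr1 rose. Of 8 genes 1 rose and 4 fell in obese against lean hearts, and 0 rose and 4 fell against WKY hearts. The RefSeq shares were 12.2% for rises and 10.9% for falls against lean hearts, and 12.4% and 10.8% against WKY hearts. With 8 genes, the counts were not tested against these shares. Nppb, the gene for the B-type peptide that Npr1 binds, stood at 0.297 of the WKY level in the authors' deposited table (DESeq2, adjusted p = 0.000328), beside 0.48 of the lean level (adjusted p = 0.0300). Corin, the protease that activates the atrial peptide precursor, fell to 0.125 of the lean level and 0.179 of the WKY level in the authors' deposited tables (adjusted p = 2.31e-34 and 3.69e-23). Mme, which encodes the peptide-degrading enzyme neprilysin, stood at 0.406 and 0.429, and Ide, which encodes the insulin-degrading enzyme that also cuts natriuretic peptides, at 0.432 and 0.325 in the authors' deposited tables. Nppc, the gene for the C-type peptide, rose 4.08-fold against lean hearts in the authors' deposited table, with an adjusted p of 0.0175.

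The other listed phosphodiesterases mostly fell where Pde9a rose. Of 17 genes 0 rose and 6 fell in obese against lean hearts, and 1 rose and 4 fell against WKY hearts. The RefSeq shares were 12.2% for rises and 10.9% for falls against lean hearts, and 12.4% and 10.8% against WKY hearts. The counts were not tested against these shares. Pde3a, whose cutting of cAMP is slowed by cGMP, fell to 0.102 of the lean level and 0.099 of the WKY level in the authors' deposited tables (DESeq2, adjusted p = 1.00e-82 and 6.29e-79). Pde4d, a cAMP-specific enzyme, stood at 0.162 and 0.15 and Pde4a at 0.167 and 0.154 in the authors' deposited tables. Pde7b, also cAMP-specific, stood at 0.206 and 0.164 in the authors' deposited tables. Grouped by substrate after the values had been seen, the 8 cAMP-specific genes of the PDE4, PDE7 and PDE8 families had 0 rises and 5 falls against lean hearts, and 0 rises and 3 falls against WKY hearts. The 5 included Pde4b at 0.48 and Pde8b at 0.493 in the authors' deposited table. Another 8 genes, of families that cut both cAMP and cGMP, had 0 rises and 1 fall against lean hearts. Against WKY hearts they had 1 rise and 1 fall. These groups do not hold all 17 genes. Of the 2 cGMP-specific genes among the 10 described here, Pde5a and Pde9a, 1 rose and 0 fell in both comparisons. As the grouping followed the values, it tests no difference between substrates. Pde2a, which cGMP stimulates, rose 2.04-fold against WKY hearts in the authors' deposited table and was not listed against lean hearts.

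Of 15 partners and targets of protein kinase G, 0 rose and 1 fell in obese against lean hearts, and 2 rose and 1 fell against WKY hearts, a small list beside backgrounds of 12.4% for rises and 10.8% for falls against WKY hearts. Mybpc3, a thick filament protein, fell to 0.384 of the lean level and 0.444 of the WKY level in the authors' deposited tables. Irag1, through which protein kinase G restrains calcium release in smooth muscle, rose 2.66-fold, and Kcnma1, a potassium channel gene of smooth muscle, rose 4.60-fold, both in obese against WKY hearts in the authors' deposited table. Of 10 genes that remove or sense nitric oxide or cGMP, 1 rose and 1 fell against lean hearts, and 2 rose and 1 fell against WKY hearts. Both lists are too small to set apart from the RefSeq shares, which against lean hearts were 12.2% for rises and 10.9% for falls. Abcc5, a transporter that exports cGMP, rose 2.62-fold against lean and 2.41-fold against WKY hearts in the authors' deposited tables. Mb, the muscle myoglobin that scavenges nitric oxide and is also among the cardiomyocyte markers below, stood at 0.334 of the lean level and 0.328 of the WKY level, while Cygb, a globin of fibroblasts and smooth muscle, rose 2.06-fold against WKY hearts, in the authors' deposited tables.

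**Figure D2:**
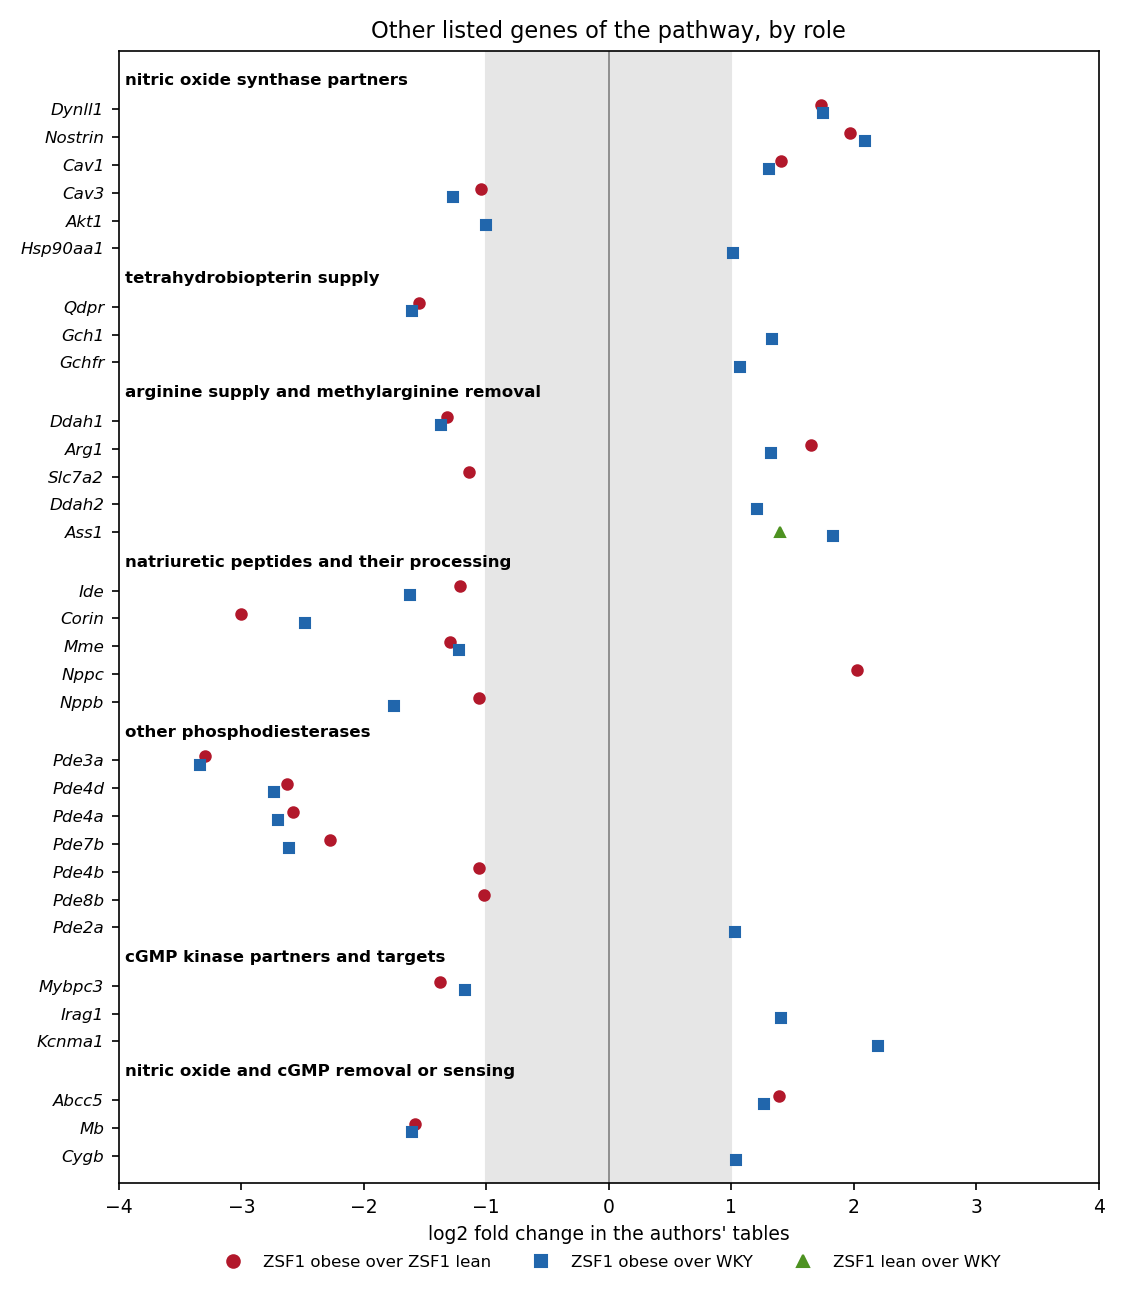
Log2 fold change of the other pathway genes listed in at least 1 of the authors' tables, grouped by role, with circles for ZSF1 obese over ZSF1 lean, squares for ZSF1 obese over WKY and triangles for ZSF1 lean over WKY. The grey band marks changes too small to be listed. The phosphodiesterases other than Pde2a and the peptide processing genes other than Nppc lie to the left, while Nostrin, Cav1 and Dynll1 lie to the right.

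Markers of the cells that make these proteins moved in the same comparisons. The marker counts in this paragraph and the next stand beside the RefSeq shares. Those were 12.2% for rises and 10.9% for falls against lean hearts, and 12.4% and 10.8% against WKY hearts. No marker list was tested against them. Endothelial cells are the main source of Nos3, and their markers rose in 10 of 12 cases and fell in 0 in both obese comparisons, with folds of 2.19 to 4.96 against lean and 2.59 to 4.66 against WKY hearts. Among them, Eng rose 4.11-fold in both, Egfl7 3.95-fold against lean and 3.23-fold against WKY hearts, and Esam 3.53-fold against lean and 4.56-fold against WKY hearts in the authors' deposited tables. Pecam1 and Cldn5 were not listed. The fold of Nos3 was 0.804 of the median of the risen endothelial markers against lean hearts and 0.847 of it against WKY hearts. For Npr1 the same ratios were 0.793 and 1.09, and for Pde9a 1.24 and 1.04. Against lean hearts 6 of the 10 risen endothelial markers lay above Nos3 and 6 above Npr1, but 1 above Pde9a.

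The 3 genes lay within the range of the risen endothelial markers in both comparisons, and equally within those of the fibroblast, macrophage and nerve and Schwann cell markers. The 3 genes and these markers had all passed the same listing fold, and markers that were not listed are left out. Lying within a range is therefore no test of a cell source. The fibroblast folds ran from 2.31 to 6.28 against lean and from 2.14 to 6.64 against WKY hearts, those of macrophages from 2.53 to 9.00 and from 2.30 to 7.21, and those of nerves and Schwann cells from 2.60 to 5.39 and from 2.06 to 4.99. Set over the median of the risen fibroblast markers, the fold was 0.759 and 0.847 for Nos3, 0.749 and 1.09 for Npr1 and 1.18 and 1.04 for Pde9a against lean and WKY hearts. These ratios were close to the endothelial ones. Which cell type the rises came from was not tested. Endocardial markers rose in 5 of 6 cases in both, with medians of 4.35 against lean and 4.96 against WKY hearts, and Npr3 was the sixth. Smooth muscle and pericyte markers rose in 5 of 12 cases and fell in 1, with medians of the risen ones of 2.93 against lean and 6.28 against WKY hearts. Fibroblast markers rose in 6 of 12 cases against lean and in 9 of 12 against WKY hearts, with 0 falls. Cardiomyocyte markers fell in 6 of 12 cases and rose in 0, with medians of 0.334 against lean and 0.314 against WKY hearts. In bulk tissue, fewer cells of a type and less RNA per cell cannot be told apart. The part of these shifts in the changes of Nos3, Npr1 and Pde9a was not tested.

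**Figure D3:**
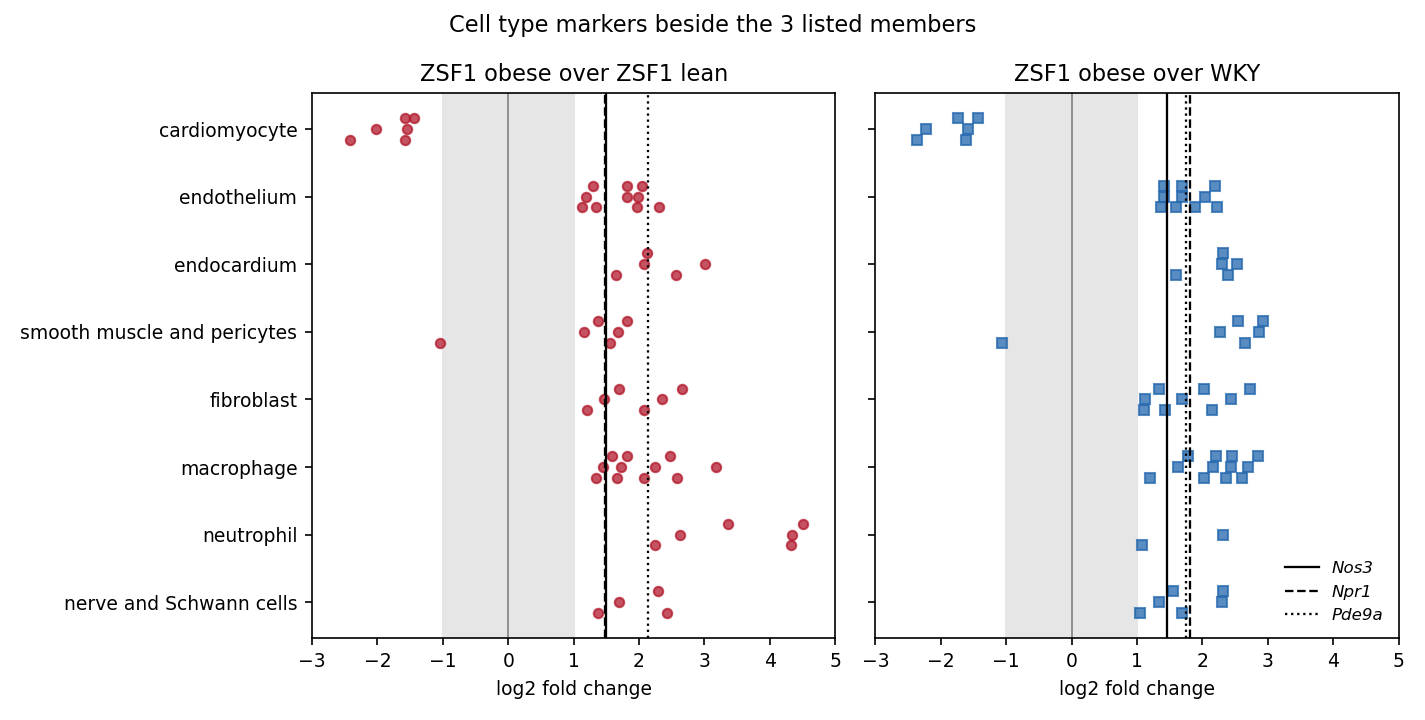
Log2 fold change of the listed markers of 8 cell types, with ZSF1 obese over ZSF1 lean on the left and ZSF1 obese over WKY on the right, and vertical lines at Nos3, Npr1 and Pde9a. The lines run through the spread of the endothelial, fibroblast, macrophage and nerve and Schwann cell markers in both panels, and the listed cardiomyocyte markers lie on the other side of 0.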

How the data were processed

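Left ventricular RNA of 6 ZSF1 obese, 6 ZSF1 lean and 6 WKY male rats was sequenced after poly(A) selection with a stranded kit, per the labels' protocols. The submitters' processing notes name HISAT2 2.1.0, HTSeq 0.11.2, DESeq2 1.22.2 and the build Rnor_6.0, without settings. The data used are the authors' 3 deposited tables of changed genes, holding 5700 (obese against lean), 5709 (obese against WKY) and 233 (lean against WKY) rows. Per the file headers they give a linear fold ratio and an FDR, an adjusted p-value, and both were used as deposited by the authors. Each fold of the obese tables equals 2 raised to an exponent given to 2 decimals. No count, level or value per rat was used, so no test was refitted.

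Rows were matched by symbol with pandas 2.3.3 in Python 3.11.15. RefSeq (GRCr8) gave promoters, older symbols and protein-coding genes, matched by 94.1%, 94.4% and 89.3% of rows. The 10 genes, the lists and the rule for named genes were chosen with earlier results of these data known. Per pathway list, up to 4 listed genes with the smallest adjusted p in each obese comparison are named, and every listed pathway gene in lean against WKY. From the marker lists fewer genes are named, mainly of the endothelium. Hsp90aa1, Pde2a, Pde4b, Pde8b, Guca2a, Pde4dip, Noa1 and Pde12 were named after their values were seen, and GGGCGG was added to the motifs then. Antisense and overlapping genes were not examined, and some pathway genes are not reported here. Matching and motif scripts were tested on simulated data.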

Additional observations from a re-analysis of the deposited data

How the results depend on the processing

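With an adjusted p under 0.01, with older symbols added, with 1 row per symbol, and with the obese tables held to the largest adjusted p of the lean table (0.000347, an alternative chosen after seeing the data), the counts of listed genes stayed within 1.5 times. At the stricter fold of 3, 1 of the 10 genes was listed in obese against lean hearts (Pde9a) and 2 in obese against WKY hearts (Npr1 and Pde9a). The counts of other pathway genes were then 9 against lean hearts (4 rises and 5 falls, beside 6 and 16), 13 against WKY hearts (4 rises and 9 falls, beside 14 and 14) and 0 in lean against WKY hearts. This follows from the stricter fold itself. At that fold the RefSeq shares of rises were 5.98% against lean and 6.37% against WKY hearts, and no share of falls was computed. The implied lean over WKY ratios moved by at most 0.01 on the log2 scale at either end of the rounding. Matching by Ensembl identifier was not run, because the reference table pairs none with its genes. No paired analysis was possible because the groups share no replicate numbers and no values per rat were used. Leaving out single rats was not run for the same reason.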

Other observations

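Of 4 genes with related names or descriptions that were picked after their values had been seen, 1 rose and 3 fell in both obese comparisons. The RefSeq shares were 12.2% for rises and 10.9% for falls against lean hearts, and 12.4% and 10.8% against WKY hearts. Because the 4 genes were picked by their values, the counts cannot be read against these shares. Guca2a, the gene for guanylin, a peptide that activates a membrane guanylyl cyclase and is best known from the intestine, had a fold of 6.45 in obese against lean hearts and of 5.62 in obese against WKY hearts in the authors' deposited tables (DESeq2, adjusted p = 0.000856 and 0.00339). Its receptor gene Gucy2c was among the guanylyl cyclase genes that were listed in none of the tables. Pde4dip, whose protein binds Pde4d, stood at 0.165 of the lean level and 0.129 of the WKY level (adjusted p = 6.15e-95 and 5.95e-109) in the authors' deposited tables. Noa1, a mitochondrial GTPase gene named for nitric oxide, stood at 0.371 and 0.374 (adjusted p = 5.35e-59 and 1.39e-43), and Pde12, a mitochondrial phosphodiesterase gene, at 0.401 and 0.426 (adjusted p = 6.77e-13 and 8.09e-10) in the authors' deposited tables.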
